A study of Mus musculus with 4 samples.

Results

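The genes described here are those of respiratory complex I, the NADH dehydrogenase of the mitochondrial inner membrane, in ventricles of newborn mice. Members were all protein-coding genes whose mouse symbol starts with Nduf, and genes starting with Ndufaf, which name assembly factors, were kept apart from subunits. This gave 46 of the 53465 genes in the count files, 38 of them named as subunits and 8 as assembly factors, and all 46 had enough counts to be tested. RNA was taken at postnatal day 1 from 2 groups of 2 libraries. Knockout-labelled mice carried the genotype Ctnnb1floxP/floxP with alphaMHC-Cre+, and control mice carried the same floxed Ctnnb1 alleles with alphaMHC-Cre-. The alphaMHC promoter drives the Cre recombinase in cardiomyocytes, so other cells of the ventricle keep intact alleles, and the comparison covers both the transgene and the deletion of Ctnnb1, the gene of β-catenin. The labels do not say that the libraries come from separate animals, and p-values therefore measure only the spread between these libraries.

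Complex I takes electrons from NADH and passes them to ubiquinone while it pumps protons, and the newborn heart relies on it increasingly as it turns to fatty acid oxidation after birth. Its matrix arm holds the flavin and the iron-sulfur clusters, and its membrane arm holds the proton pumps, whose central subunits are encoded in mitochondrial DNA. Accessory subunits surround this core, and assembly factors help to build the complex without staying in it.

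Libraries held between 34027143 and 45651797 counts in genes, and the lowest count of any member in any library was 392. Levels are given in CPM, the gene's counts scaled to a common library total after TMM scaling, which assumes most genes to be unchanged. Each adjusted p comes from edgeR's quasi-likelihood test, adjusted by Benjamini-Hochberg over all genes tested. Mitochondrially encoded genes took 10.2% and 14.4% of gene counts in knockout-labelled libraries 1 and 2, against 5.25% and 7.65% in controls 1 and 2. Xist, which silences an X chromosome in females, had 0.180 and 602 CPM in knockout-labelled libraries 1 and 2, against 0.257 and 0.327 CPM in the controls. Kdm5d, a gene of the Y chromosome, had 37.4 and 0 CPM in knockout-labelled libraries 1 and 2, against 41.3 and 42.4 CPM in the controls. In both genes knockout-labelled library 2 thus had the pattern of a female, and the other libraries had that of males. Sex was therefore not balanced between the groups. Ctnnb1 itself had 526 and 460 CPM in the knockout-labelled libraries and 408 and 434 CPM in the controls, with a log2 fold change of 0.23 ± 0.20 (SE; edgeR adjusted p = 0.532). Its count takes in the whole gene and all cell types, so it is no check of the genotype, and directions are given for libraries as labelled.

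Most complex I genes lay higher in the knockout-labelled libraries, but none passed the test over all genes. The log2 fold change, knockout-labelled over control, was positive for 36 of 38 subunits and for 8 of 8 assembly factors, against 48.5% of the 18157 genes tested. The median was 0.66 for the subunits, within a range of -0.23 to 1.10, and 0.66 for the assembly factors, within a range of 0.33 to 0.81, against -0.02 over all genes tested. At an adjusted p under 0.05, edgeR's quasi-likelihood test called 0 subunits and 0 assembly factors, and 0.0110% of all genes, which were 2 pseudogenes of a ribosomal protein gene. The smallest adjusted p of a member was 0.0925, a value shared by 616 genes. At an unadjusted p under 0.05, 21 subunits and 6 assembly factors were higher and 0 members were lower, where 11.8% of all genes were higher and 11.2% lower.

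Groups were separated for most members. Both knockout-labelled libraries exceeded both controls for 28 of 38 subunits (73.7%) and for 8 of 8 assembly factors, against 26.5% of all genes. They lay below both controls for 1 subunit, Ndufa4l2, against 29.7% of all genes, and the groups overlapped for the other 9. DESeq2 gave an adjusted p to 15837 genes, and at a value under 0.05 it called 6.19% of these higher and 4.91% lower. It called 15 subunits and 4 assembly factors higher and 0 members lower. The subunits were Ndufv2, Ndufs1 and Ndufs8 of the core, Ndufa12, Ndufs4 and Ndufa5 of the matrix arm, Ndufc1, Ndufc2 and Ndufa11 of the proximal membrane arm, Ndufb3, Ndufb6, Ndufb7 and Ndufb8 of the distal membrane arm, and Ndufab1 and Ndufa4. The authors' deposited table listed 14 subunits and 4 assembly factors as higher and 0 as lower, against 5.83% of its genes higher and 4.62% lower, and DESeq2 here called all 18 of these. With no filter on low counts edgeR called Ndufc1, where 0.978% of all genes were called higher. With a pairing of libraries 1 and 2 crossed between groups as a block, chosen after seeing the data, it called 5 subunits and 1 assembly factor, where 2.76% of all genes were called higher. Without knockout-labelled library 2 the median of the subunits was 0.36, and without knockout-labelled library 1 it was 0.96. In bulk RNA, more cells of a type and more RNA per cell cannot be told apart.

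**Figure D1:**
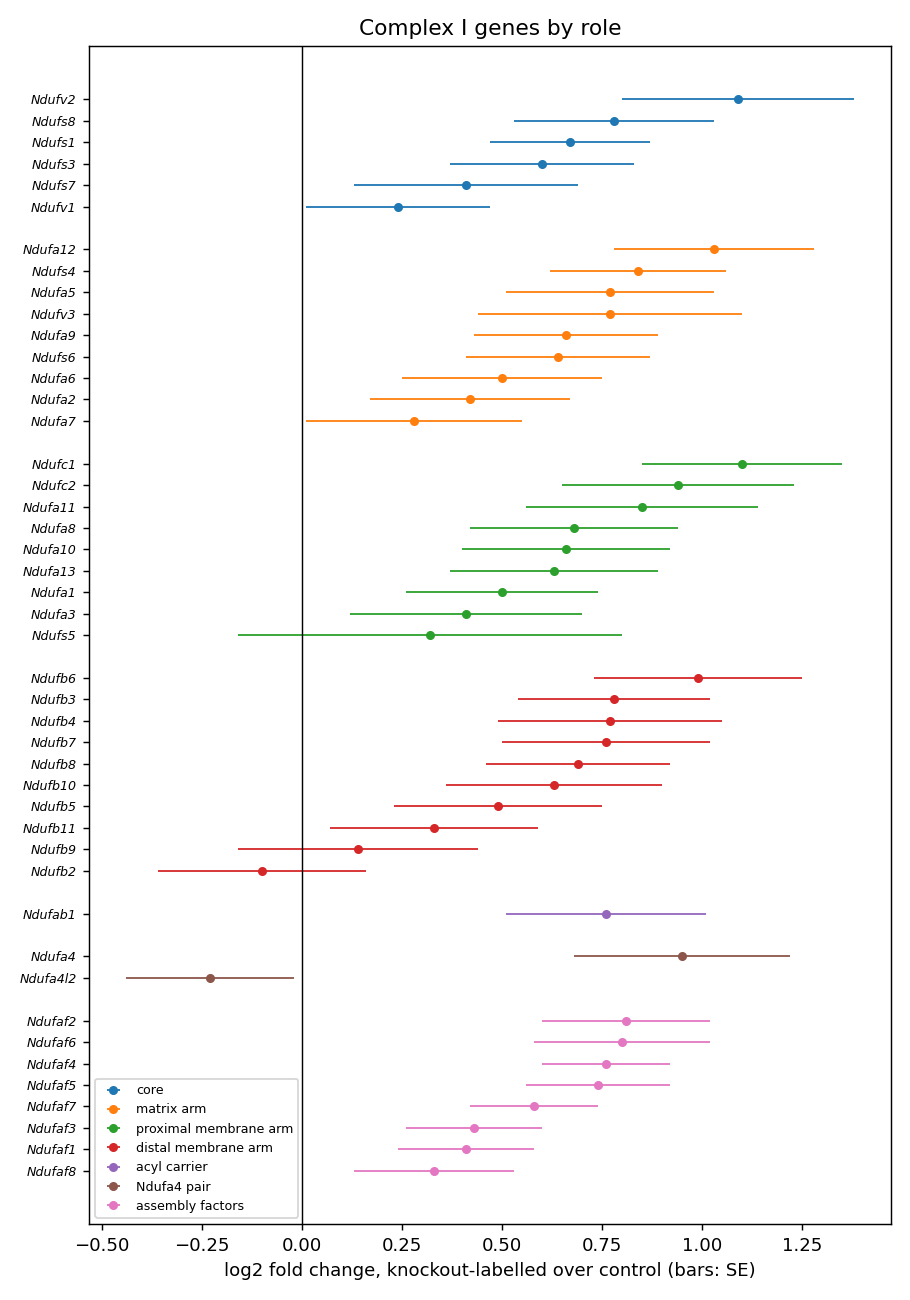
Log2 fold change of the complex I genes, knockout-labelled over control, on the x axis, with genes grouped by role down the y axis. Points are edgeR estimates and bars are 1 SE. All but Ndufb2, at -0.10, and Ndufa4l2, at -0.23, lie right of 0, and the highest is Ndufc1 at 1.10.

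The core subunits of the matrix arm, which carry electrons from NADH to ubiquinone, had a median log2 fold change of 0.60 and were separated between groups, and higher in the knockout-labelled libraries, for 5 of 7, against 26.5% of all genes. Ndufv2 (ENSMUSG00000024099, chromosome 17, 66078638 to 66101559, reverse strand, GRCm38), an iron-sulfur subunit of the NADH-oxidising tip, had 517 and 854 CPM in knockout-labelled libraries 1 and 2, against 328 and 314 CPM in controls 1 and 2. Both knockout-labelled libraries were high, library 2 by the wider margin, and the controls were close together. The log2 fold change was 1.09 ± 0.29 (SE; edgeR adjusted p = 0.117). Its partner Ndufv1 (chromosome 19, 4007384 to 4012806), which binds NADH and the flavin, had 643 and 801 CPM in the knockout-labelled libraries and 667 and 558 CPM in the controls. Here knockout-labelled library 1 fell between the controls, and the log2 fold change was 0.24 ± 0.23 (SE; edgeR adjusted p = 0.579).

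Within the core, the other subunits described had log2 fold changes between these values. Ndufs1 (chromosome 1, 63143596 to 63176833), which carries several iron-sulfur clusters, had 646 and 588 CPM in the knockout-labelled libraries and 398 and 377 CPM in the controls, with a log2 fold change of 0.67 ± 0.20 (SE; edgeR adjusted p = 0.135). It was the only subunit with a higher level in knockout-labelled library 1 than in library 2. Ndufs8, which carries iron-sulfur clusters near the membrane, had 191 and 297 CPM in the knockout-labelled libraries, against 150 and 134 CPM in the controls, with a log2 fold change of 0.78. Ndufs3 had a value of 0.60, and both genes were separated between groups. Ndufs7, which lies beside the ubiquinone site, had a value of 0.41 with overlapping groups, with 225 and 358 CPM in the knockout-labelled libraries and 246 and 191 CPM in the controls.

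Accessory subunits of the matrix arm had a median of 0.66 and were separated in the same sense for 7 of 9, against the same 26.5% of all genes. Ndufa12 (chromosome 10, 94198720 to 94221443, forward strand) had 209 and 316 CPM in the knockout-labelled libraries, against 137 and 121 CPM in the controls. Both knockout-labelled libraries were high, and the log2 fold change was 1.03 ± 0.25 (SE; edgeR adjusted p = 0.106). Ndufs4, whose loss in mice gives an encephalopathy used as a model of Leigh syndrome, had 170 and 239 CPM in the knockout-labelled libraries and 113 and 116 CPM in the controls, with a log2 fold change of 0.84 ± 0.22 (SE; edgeR adjusted p = 0.115). Ndufa6, which had the highest level of these genes per kilobase of transcript (463 CPM per kilobase over the 4 libraries), had 253 and 388 CPM in the knockout-labelled libraries, against 241 and 211 CPM in the controls. It was separated only narrowly by knockout-labelled library 1. The log2 fold changes of Ndufa5, Ndufv3, Ndufa9, Ndufs6 and Ndufa6 were 0.77, 0.77, 0.66, 0.64 and 0.50. The lowest in this group was Ndufa7, with 180 and 284 CPM in the knockout-labelled libraries and 210 and 172 CPM in the controls, with a log2 fold change of 0.28 ± 0.27 (SE; edgeR adjusted p = 0.565). Ndufa7 and Ndufa2, whose value was 0.42, were the members of this group with overlapping groups.

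In the proximal membrane arm, which links the matrix arm to the proton pumps, the median was 0.66 and 7 of 9 genes were separated and higher (26.5% of all genes). Ndufc1 (ENSMUSG00000037152, chromosome 3, 51404677 to 51408988, reverse strand), a small accessory subunit, had 172 and 270 CPM in the knockout-labelled libraries, against 107 and 99.1 CPM in the controls. Its log2 fold change of 1.10 ± 0.25 was the highest of the 46 members (SE; edgeR adjusted p = 0.0996). Its partner Ndufc2 had 199 and 343 CPM in the knockout-labelled libraries and 151 and 131 CPM in the controls, with a log2 fold change of 0.94. Ndufa11, the highest of this arm per kilobase (470 CPM per kilobase), had 242 and 418 CPM in the knockout-labelled libraries, against 197 and 169 CPM in the controls, with a log2 fold change of 0.85 ± 0.29 (SE; edgeR adjusted p = 0.166). In all 3 genes the level was high in both knockout-labelled libraries and highest in library 2. Ndufa8, Ndufa10, Ndufa13 and Ndufa3 had values of 0.68, 0.66, 0.63 and 0.41, the last with overlapping groups.

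Both X-linked members lie in the membrane arm and had lower log2 fold changes than the median subunit. Ndufa1 (chromosome X, 37187588 to 37191163) had 155 and 237 CPM in the knockout-labelled libraries and 142 and 135 CPM in the controls, with a log2 fold change of 0.50 ± 0.24 (SE; edgeR adjusted p = 0.272) that was -0.35 after trends with GC content and length were removed. Ndufb11 (chromosome X, 20615326 to 20617619) had 355 and 530 CPM in the knockout-labelled libraries and 381 and 321 CPM in the controls, with a log2 fold change of 0.33 ± 0.26 (SE; edgeR adjusted p = 0.479). Knockout-labelled library 2, the library with Xist, was the highest for both genes, as it was for every other subunit except Ndufs1 and Ndufa4l2. The part of the sex-linked difference in these values was not tested.

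Ndufs5, a proximal membrane arm subunit, had the highest log2 ratio of knockout-labelled library 2 over library 1 of the 46 members, 1.61. It had 27.1 and 83.0 CPM in the knockout-labelled libraries, against 47.8 and 40.3 CPM in the controls, so that the knockout-labelled libraries held both the lowest and the highest level. The log2 fold change was 0.32 ± 0.48 (SE; edgeR adjusted p = 0.730), and without knockout-labelled library 2 it was -0.69. A processed pseudogene, BC002163, carries a nearly identical copy: its 319 bases match the Ndufs5 transcript at 99.4%, all within the coding sequence, and differ from it at 2 bases. The stretch from coding base 61 to 120 is shown because it holds both differing bases, given in capitals in transcripts of GENCODE M21 (GRCm38).
Ndufs5 (chromosome 4, 123712710 to 123718202, reverse strand): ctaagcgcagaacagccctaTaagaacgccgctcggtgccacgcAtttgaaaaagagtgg
BC002163 (chromosome 16, 42955631 to 42955949, forward strand): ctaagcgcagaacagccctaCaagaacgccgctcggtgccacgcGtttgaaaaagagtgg
Reads from this stretch are told apart only at those 2 bases, so the split between gene and copy is uncertain. The copy had 100 and 76.6 CPM in the knockout-labelled libraries, against 36.6 and 30.8 CPM in the controls, with a log2 fold change of 1.39 ± 0.20 (SE; edgeR adjusted p = 0.0925). It took 78.7% and 48.0% of the sum of both in the knockout-labelled libraries, against 43.4% and 43.3% in the controls. The sum had 127 and 160 CPM in the knockout-labelled libraries and 84.4 and 71.1 CPM in the controls, with no overlap. Its log2 fold change was 0.88 ± 0.20 (SE; edgeR adjusted p = 0.0967 with each copy added to its member, an alternative chosen after the values were seen).

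**Figure D2:**
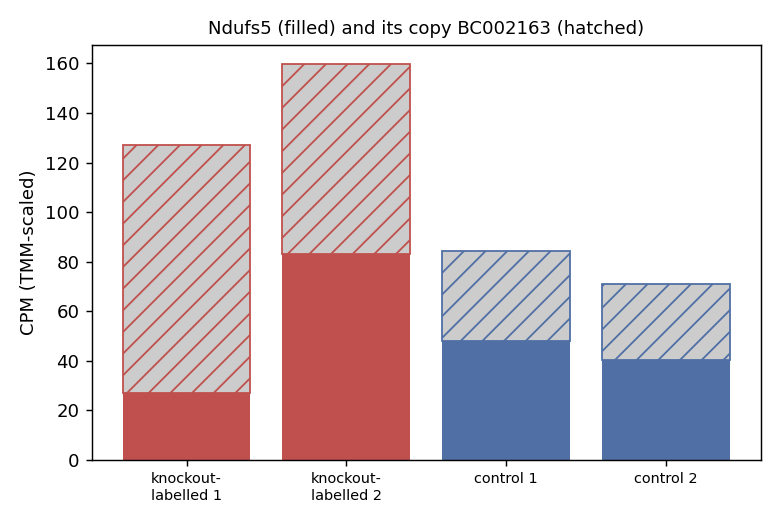
TMM-scaled CPM of Ndufs5 (filled) and of its processed copy BC002163 (hatched, stacked on it) in each library on the y axis, knockout-labelled libraries at the left. The sums are 127 and 160 CPM in the knockout-labelled libraries, above 84.4 and 71.1 CPM in the controls, while Ndufs5 alone is lowest in knockout-labelled library 1.

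Other members have copies of the same kind that took a smaller share of reads. In all, 13 members had 17 processed pseudogenes that matched them at 90% identity or more. Of these, 14 had enough counts to be tested, and all 14 lay higher in both knockout-labelled libraries, against 77.7% of all processed pseudogenes tested and 26.5% of all genes, with a median log2 fold change of 1.74 that was 1.17 once trends with GC content and length were taken out. The copies held 6.15 and 3.22 counts per 100 counts of their members in the knockout-labelled libraries, against 2.31 and 2.33 in the controls. Without Ndufs5 and BC002163 these values were 2.41 and 1.38 in the knockout-labelled libraries, against 0.690 and 0.765 in the controls. After Ndufs5 the most affected gene was Ndufa12, whose copy Gm15920 took 15.1% and 5.79% of their sum in the knockout-labelled libraries, against 4.09% and 4.82% in the controls. With the copies added, its log2 fold change was 1.11 and the median of all subunits was 0.67. Reads assigned to more than 1 place, which enter no gene, were 23.9% and 29.7% of counted reads in the knockout-labelled libraries, against 19.4% and 21.0% in the controls, and their part in these values was not tested.

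Subunits of the distal membrane arm, the Ndufb genes, had a median of 0.66 and were separated and higher for 7 of 10 (26.5% of all genes). Ndufb6 (chromosome 4, 40270591 to 40279421) had 107 and 171 CPM in the knockout-labelled libraries, against 75.0 and 64.5 CPM in the controls, with a log2 fold change of 0.99 ± 0.26 (SE; edgeR adjusted p = 0.115). Ndufb10 had the highest level of the arm per kilobase (531 CPM per kilobase) and had 371 and 573 CPM in the knockout-labelled libraries, against 338 and 271 CPM in the controls. Both genes were higher in each knockout-labelled library, and Ndufb10 only by a small margin in library 1. Ndufb3, Ndufb4, Ndufb7, Ndufb8, Ndufb10 and Ndufb5 had log2 fold changes of 0.78, 0.77, 0.76, 0.69, 0.63 and 0.49.

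Ndufb9 and Ndufb2 departed from the rest of the arm. Ndufb9 had 128 and 227 CPM in the knockout-labelled libraries and 175 and 146 CPM in the controls, with a log2 fold change of 0.14 that was -0.31 without knockout-labelled library 2. Ndufb2 (chromosome 6, 39592574 to 39603382) had 13.1 and 20.2 CPM in the knockout-labelled libraries, against 18.5 and 17.2 CPM in the controls, with a log2 fold change of -0.10 ± 0.26 (SE; edgeR adjusted p = 0.847) that was 0.23 without knockout-labelled library 1. In both genes the knockout-labelled libraries held the lowest and the highest level. The counts of both are uncertain for another reason: another protein-coding gene annotated on the same strand shares 46.0% of the coding bases of Ndufb2 and 37.4% of those of Ndufb9, and reads in a shared stretch can be set aside as ambiguous. Ndufb8 shares 19.9% in this way. The low level of Ndufb2 per kilobase, 3.95 CPM per kilobase, was taken with a principal transcript of 4371 bases.

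Ndufab1, the mitochondrial acyl carrier protein, serves in fatty acid and lipoate synthesis as well as in complex I. It had 133 and 208 CPM in the knockout-labelled libraries, against 103 and 97.7 CPM in the controls, with no overlap. Its log2 fold change was 0.76 ± 0.25 (SE; edgeR adjusted p = 0.152).

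Ndufa4 and its paralogue Ndufa4l2 had values of opposite sign. Ndufa4, first described in complex I and now counted as a subunit of cytochrome c oxidase, had the highest level of all members per kilobase (917 CPM per kilobase). It had 581 and 894 CPM in the knockout-labelled libraries and 385 and 377 CPM in the controls, with a log2 fold change of 0.95 ± 0.27 (SE; edgeR adjusted p = 0.128). Ndufa4l2 (chromosome 10, 127514967 to 127517154), a hypoxia-induced gene, had 12.4 and 13.2 CPM in the knockout-labelled libraries, against 15.7 and 14.4 CPM in the controls. Both knockout-labelled libraries were lower than both controls by a small margin, and the log2 fold change was -0.23 ± 0.21 (SE; edgeR adjusted p = 0.544). The difference between the log2 fold changes of the 2 genes was not tested. Leaving both out kept the median of the remaining 36 subunits at 0.66.

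The assembly factors were expressed far below the subunits, with a median of 19.1 CPM per kilobase against 286.5 for the subunits. Ndufaf2 (chromosome 13, 108002715 to 108158623), a paralogue of Ndufa12 that holds its place during assembly, had 22.9 and 28.4 CPM in the knockout-labelled libraries, against 13.7 and 15.5 CPM in the controls. Its log2 fold change was 0.81 ± 0.21 (SE; edgeR adjusted p = 0.113), and it also had the highest level of these genes per kilobase (29.7 CPM per kilobase). Its annotated exons overlap a long noncoding RNA on the opposite strand, though its coding bases do not. The libraries were stranded, but the strand setting of the counting is not given in the sources used here. Whether reads of both were told apart is therefore not known. In all, 17 members overlap a gene on the opposite strand. Ndufaf4 (ENSMUSG00000028261, chromosome 4, 24898083 to 24905001, forward strand), which acts with Ndufaf3 in building the ubiquinone-binding module, had 89.9 and 94.8 CPM in the knockout-labelled libraries, against 50.6 and 58.1 CPM in the controls. Its log2 fold change was 0.76 ± 0.16 (SE; edgeR adjusted p = 0.0925), the smallest adjusted p of all members.

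Ndufaf5, which hydroxylates an arginine of Ndufs7, had 24.9 and 26.0 CPM in the knockout-labelled libraries, against 15.2 and 15.3 CPM in the controls, with a log2 fold change of 0.74 ± 0.18 (SE; edgeR adjusted p = 0.105). Within each group its libraries were almost equal. Ndufaf6 had 17.4 and 21.2 CPM in the knockout-labelled libraries, against 11.9 and 10.2 CPM in the controls, with a log2 fold change of 0.80 ± 0.22 (SE; edgeR adjusted p = 0.128). Ndufaf7, an arginine methyltransferase, and Ndufaf3 had values of 0.58 and 0.43. Ndufaf1, a member of the complex that assembles the membrane arm, had 36.5 and 36.3 CPM in the knockout-labelled libraries, against 24.8 and 30.0 CPM in the controls, with a log2 fold change of 0.41 ± 0.17 (SE; edgeR adjusted p = 0.229). The lowest was Ndufaf8, which stabilises Ndufaf5, with 22.7 and 22.4 CPM in the knockout-labelled libraries and 19.8 and 16.0 CPM in the controls, with a log2 fold change of 0.33 ± 0.20 (SE; edgeR adjusted p = 0.359). In DESeq2, Ndufaf2, Ndufaf4, Ndufaf5 and Ndufaf6 were the assembly factors called higher.

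Subunits and assembly factors had the same median log2 fold change, and their levels by library are set side by side. The subunits together had 10200 and 14900 CPM in knockout-labelled libraries 1 and 2, against 8650 and 7490 CPM in controls 1 and 2. The assembly factors summed to 277 and 297 CPM in the knockout-labelled libraries, against 182 and 191 CPM in the controls. Relative to the mean of the controls, the subunits' median log2 level was 0.35 in knockout-labelled library 1 and 0.91 in library 2, while that of the assembly factors was 0.58 and 0.71. Within the groups, 37 of 38 subunits were higher in knockout-labelled library 2 than in library 1, against 50.2% of all genes, and 37 of 38 were higher in control 1 than in control 2, against 50.4% of all genes. The order of knockout-labelled 2, knockout-labelled 1, control 1 and control 2, high to low, held for 26 of 38 subunits, against 8.20% of all genes. The median log2 ratio of knockout-labelled library 2 over library 1 was 0.63 for subunits and 0.09 for assembly factors, and that of control 1 over control 2 was 0.19 and -0.05. The subunits were thus ordered alike between libraries of 1 group as well as between groups. The full order also held for 8 of 9 genes of complex III and 8 of 13 of complex IV. It held for 12 of 15 genes of the ATP synthase and for 2 of 4 of complex II. Whether the subunits of complex I differ in this from the assembly factors or the other complexes was not tested.

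**Figure D3:**
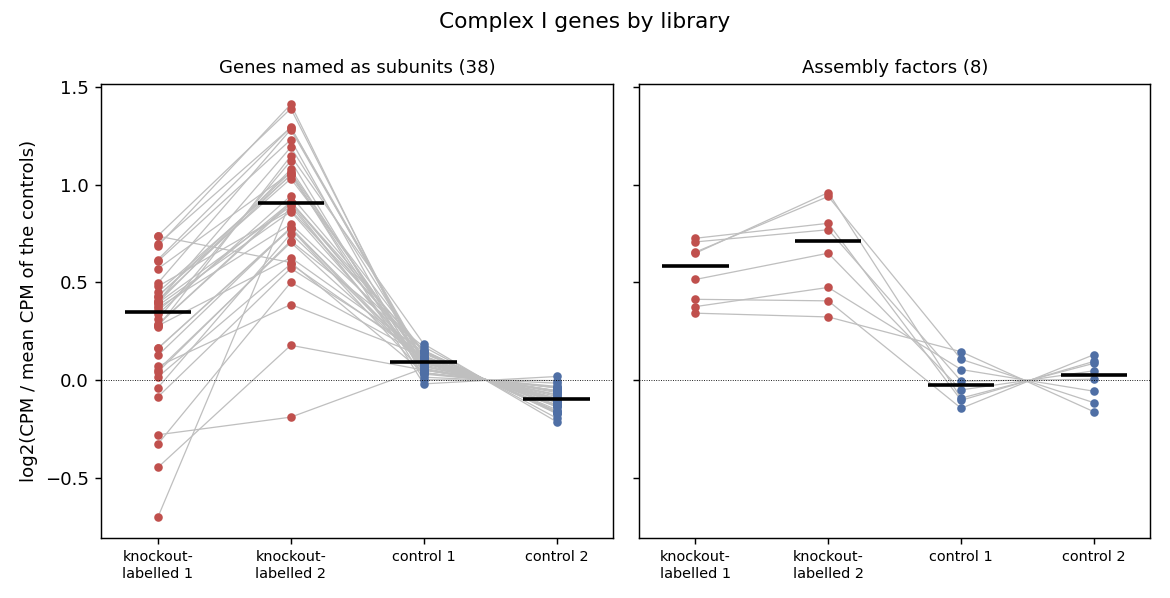
Log2 ratio of each gene's CPM to its mean in the controls on the y axis, by library on the x axis, for the 38 genes named as subunits (left) and the 8 assembly factors (right). Grey lines join the points of 1 gene and black bars are medians, which are 0.35 and 0.91 for subunits and 0.58 and 0.71 for assembly factors in knockout-labelled libraries 1 and 2.

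Promoters of 40 members were present in RefSeq windows of 250 bases before to 50 bases after the gene start (GRCm38.p6), and 4 factors linked in general to respiratory genes were looked for by their letters on both strands. The longer NRF1 motif, marked in the sequences shown here, was found in 3 of 40 promoters (7.5%), those of Ndufa11, Ndufaf4 and Ndufaf5, against 1.07% of 27025 genes. The shorter NRF1 letters TGCGCA, which can overlap the longer ones, were found in 11 (27.5%), against 8.79% of genes. The YY1 letters AAGATGGC were found in 8 (20%), against 3.19%, and the ETS letters CCGGAAG in 6 (15%), against 9.93%. The ERR letters TCAAGGTCA were found in 0 promoters, against 0.466% of genes. Ndufc1, with the highest log2 fold change, held the YY1 letters, and so did Ndufs7, at 0.41 with overlapping groups. The bases before the start of Ndufa11 and Ndufaf4 are shown because the longer NRF1 letters lie in them, in genes from the subunits and from the assembly factors. Capitals mark the NRF1 letters, in Ndufaf4 both forms overlapping.
Ndufa11 promoter (chr17:56717512-56717761, forward strand): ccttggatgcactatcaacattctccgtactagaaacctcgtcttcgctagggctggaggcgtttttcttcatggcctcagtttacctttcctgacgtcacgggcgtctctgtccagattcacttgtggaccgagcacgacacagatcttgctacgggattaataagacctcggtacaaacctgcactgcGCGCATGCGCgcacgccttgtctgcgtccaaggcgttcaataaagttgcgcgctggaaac
Ndufaf4 promoter (chr4:24897833-24898082, forward strand): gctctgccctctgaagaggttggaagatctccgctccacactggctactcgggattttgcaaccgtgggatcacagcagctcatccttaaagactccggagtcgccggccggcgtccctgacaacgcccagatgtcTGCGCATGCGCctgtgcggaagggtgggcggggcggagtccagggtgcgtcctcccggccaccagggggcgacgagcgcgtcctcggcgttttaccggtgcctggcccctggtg
A match of letters is not a binding site, and binding was not measured here.

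The subunits of complex I encoded in mitochondrial DNA, which are not among the 46 genes, lay higher in both knockout-labelled libraries for 7 of 7, against 26.5% of all genes. mt-Nd1, which forms part of the ubiquinone channel, had 16300 and 24000 CPM in the knockout-labelled libraries, against 4690 and 6680 CPM in the controls, with a log2 fold change of 1.83 ± 0.42 (SE; edgeR adjusted p = 0.0997). mt-Nd2, a proton-pumping subunit, had 7850 and 10200 CPM in the knockout-labelled libraries, against 1870 and 3130 CPM in the controls, with a log2 fold change of 1.85. The pumps mt-Nd4 and mt-Nd5 each had a value of 1.05. mt-Nd6, which lies on the opposite strand from the others, had 1.19. As the strand setting of the counting is not given, whether its count holds reads of the other strand is not known. Once trends with GC content and length were taken out, the values were 1.12 for mt-Nd1, 1.14 for mt-Nd2, 0.41 for mt-Nd4, 0.58 for mt-Nd5 and 0.05 for mt-Nd6. mt-Nd3 and mt-Nd4l had at most 32 counts in any library and 0 to 4 in the controls, so their directions rest on few reads. Nuclear subunits summed to 23.5 and 22.6 CPM per 100 CPM of the mitochondrially encoded ones in the knockout-labelled libraries, against 52.7 and 31.0 in the controls, so this ratio was low in both knockout-labelled libraries and unequal between controls.

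Assembly factors not named Nduf had a positive log2 fold change in 9 of 11 genes, against 48.5% of all genes. The 2 negative values were small, -0.10 ± 0.26 for Nubpl and -0.15 ± 0.19 for Dmac2 (SE). Of the 11 found from a list of 12, 4 (36.4%) were separated and higher in the knockout-labelled libraries, against 26.5% of all genes, and their median log2 fold change was 0.27. Tmem126a had the highest value. It had 51.7 and 61.7 CPM in the knockout-labelled libraries, against 27.2 and 28.2 CPM in the controls, with a log2 fold change of 1.03 ± 0.17 (SE; edgeR adjusted p = 0.0925). Tmem70 had a value of 0.53. Acad9, Ecsit and Tmem126b, which form an assembly complex with Ndufaf1, had values of 0.27, 0.19 and 0.33, each with overlapping groups, beside 0.41 for Ndufaf1.

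The medians of the other respiratory complexes are given beside that of complex I, 0.66, and beside the 26.5% of all genes that were separated and higher. Subunits of complex II had a median log2 fold change of 0.51, with 4 of 4 genes separated and higher in the knockout-labelled libraries. Complex III had 0.73 with 9 of 9, complex IV 0.64 with 9 of 13, and the ATP synthase 0.61 with 13 of 15. Once trends with GC content and length were taken out, the medians were 0.43 for complex II, 0.40 for complex III, 0.13 for complex IV and 0.39 for the ATP synthase, beside 0.43 for the subunits of complex I. No difference between the complexes was tested.

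Complex I transcripts are short, and removing trends with GC content and length lowered both medians. The median transcript was 921 bases long for the subunits and 1308.5 for the assembly factors, against 3019 for all protein-coding genes tested. Across the 38 subunits, which share the same libraries and are not independent, Pearson's r of the log2 fold change was -0.335 with GC content, -0.0401 with log2 length and 0.365 with the log2 level per kilobase. After trends with GC content and length over nuclear genes were removed, 30 of 38 subunits and 8 of 8 assembly factors were positive. The share of positive values over all genes was not taken on this scale. The median was 0.43 for subunits and 0.43 for assembly factors, against 0.01 over all genes tested. By role it was 0.48 for the core and 0.30 for the distal membrane arm. Ndufa4 had a value of 0.21 on this scale and Ndufaf2 one of 0.28, against 0.95 and 0.81 without it. With scaling by library totals alone the medians were 0.41 for subunits and 0.42 for assembly factors, while that of all genes was -0.26.

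**Figure D4:**
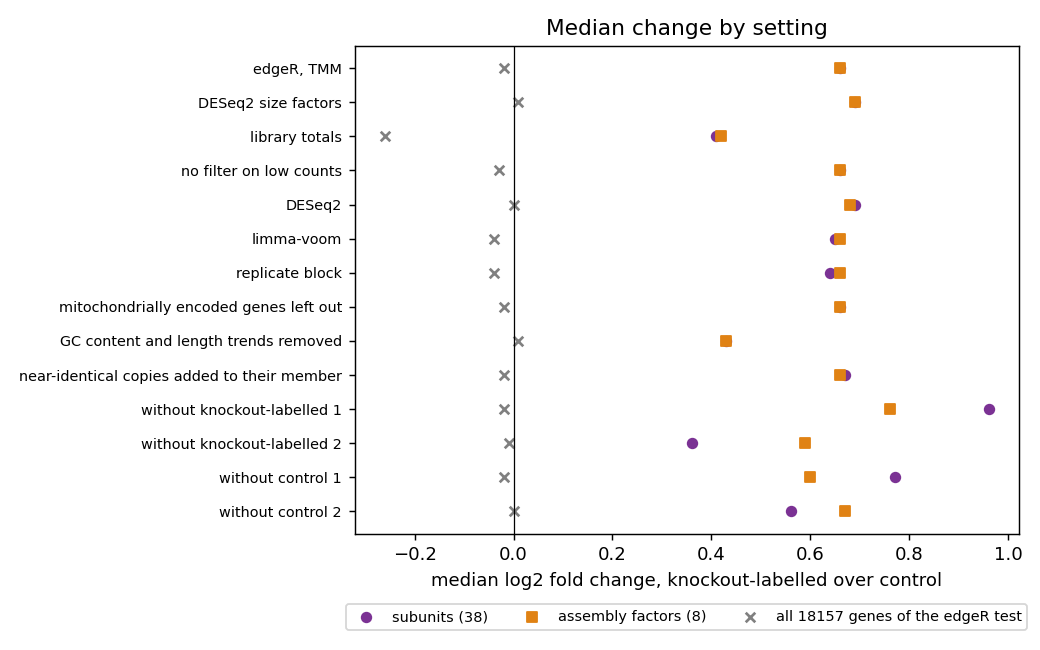
Median log2 fold change, knockout-labelled over control, on the x axis under each setting on the y axis except the crossed pairing, which is not shown. Circles are subunits, squares are assembly factors and crosses are all 18157 genes of the edgeR test. The subunits' median is 0.96 without knockout-labelled library 1 and 0.36 without library 2, while that of the assembly factors is 0.76 and 0.59.

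Markers of ventricular cell types also differed between libraries. Cardiomyocyte markers, 11 genes of the sarcomere and calcium handling, summed to 80700 and 89800 CPM in the knockout-labelled libraries, against 66800 and 60400 CPM in the controls, and 6 of 11 were separated and higher, where 26.5% of all genes were. Per 100 CPM of these markers the subunits summed to 12.6 and 16.6 CPM in the knockout-labelled libraries, against 12.9 and 12.4 CPM in the controls. By this ratio knockout-labelled library 1 lay within the controls and library 2 above them. The ratio weights the markers by their level, and the markers differed in direction. Their log2 fold changes ran from -1.16 for Myh7 to 1.12 for Actc1, with 9 positive and 2 negative. Their median log2 level over the control mean was 0.15 and 0.46 in knockout-labelled libraries 1 and 2. That of the subunits was 0.35 and 0.91. The assembly factors summed to 0.343 and 0.331 CPM per 100 CPM of the markers in the knockout-labelled libraries, against 0.272 and 0.316 CPM in the controls. Macrophage markers summed to 70.9 and 80.8 CPM in the knockout-labelled libraries, against 137 and 104 CPM in the controls, with 5 of 6 separated and lower, where 29.7% of all genes were. Erythroid markers summed to 763 and 655 CPM in the knockout-labelled libraries, against 1080 and 1120 CPM in the controls. T-cell markers summed to 1.22 and 1.01 CPM in the knockout-labelled libraries, against 193 and 3.57 CPM in the controls, so that control 1 stood apart, and without it the median of the subunits was 0.77. Fibroblast and endothelial markers had median log2 fold changes of 0.01 and -0.05, and mural and atrial markers had -0.57 and -0.68. The atrial markers summed to 1430 and 1610 CPM in the knockout-labelled libraries, against 1570 and 2650 CPM in the controls. In this sum control 2 stood apart, and knockout-labelled library 2 lay between the controls. Of 5 brown fat markers 4 had too few counts to be tested. Ucp1, the defining gene, had 0.0225 and 0 CPM in the knockout-labelled libraries and 0.0643 and 0 CPM in the controls. The other, Cidea, had 39.5 and 42.8 CPM in the knockout-labelled libraries, against 37.3 and 35.5 CPM in the controls. The part of these markers in the values of complex I genes was not tested.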

How the data were processed

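PolyA-selected RNA was made into stranded Kapa libraries, per the labels' protocols. The submitters' processing notes name STAR 2.5.3a, HTSeq 0.6.1, bcl2fastq 2.16.0.10 and FastQC 0.11.5, and the build GRCm38. The deposited values are whole counts per gene with no scaling. A table of the whole series holds the authors' log2 fold changes and the authors' p-values and adjusted p-values, and its notes name DESeq2 1.18. Its counts equalled those of the per-sample files, and 4 other columns of per-sample values in it were not used. Rows that name no gene, 30.3% to 36.8% of counted reads, were left out.

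Of 53465 gene identifiers, 53274 matched GENCODE M21, which gave symbols and positions. Counts were fitted with edgeR 4.0.16 in R 4.3.3 (filterByExpr, TMM, quasi-likelihood test, 18157 genes), with Benjamini-Hochberg adjustment over all of them and a threshold of 0.05. The error given with a log2 fold change is its SE. Levels per kilobase divide CPM by the principal coding transcript. DESeq2 1.42.0, limma-voom (limma 3.58.1), other scalings, no filter on low counts, a replicate block, removal of GC content and length trends (mgcv 1.9.3) and leaving out each library were alternatives. Near-identical copies were found with blastn 2.17.0 at 90% identity over at least 200 bases. Matches also had to lie in the same sense and to cover a set minimum share of the shorter transcript. The fits were also run on simulated data with 200 changed genes, in which each gene was drawn independently. No result given here rests on that run.

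The members, roles and lists were chosen with earlier results of these data known. In each role the genes with the highest and lowest log2 fold change and the highest level per kilobase were described in full, with X-linked members, Ndufa4, Ndufa4l2, Ndufaf1 and genes that differ from their group; Ndufs5 and its copy were singled out after their values were seen. The values of 1 member are not reported here, in the text or by name in a figure, though counts and medians include it. Replicate numbers do not pair libraries in the labels.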

Additional observations from a re-analysis of the deposited data

How the results depend on the processing

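The direction of both medians held under all 14 alternatives, and the number of calls did not. Genes called over all genes were 2 in edgeR, 554 with no filter on low counts, 1758 in DESeq2, 0 in limma-voom and 0 to 30 when 1 library was left out, and limma-voom had 0 members past the threshold. Subunits called were 0 in edgeR, 1 with no filter (Ndufc1, adjusted p = 0.0457, where 0.978% of all genes were called higher) and 15 in DESeq2. Assembly factors called were 0 in edgeR and 4 in DESeq2. Over all genes with an adjusted p, DESeq2 called 6.19% higher and 4.91% lower, while edgeR called 0.0110% of the genes tested. With replicate numbers as a block, edgeR called 18 genes and 0 members. Deviations of libraries with the same number had a weak negative correlation across genes (-0.116), and with the numbers crossed, a pairing chosen after seeing the data, edgeR called 942 genes, 5 subunits and 1 assembly factor, where 2.76% of all genes were called higher. The assembly factors' median was 0.42 with library totals, 0.43 with GC content and length trends removed, and 0.59 to 0.76 when 1 library was left out. The subunits' median was 0.36 to 0.96 when 1 library was left out. Subunits separated and higher were 28 in the main analysis, 22 with library totals and 26 with GC content and length trends removed. Assembly factors separated and higher were 6 of 8 in each of the last-named settings. Over all genes this share was 26.5% in the main analysis. It was not taken in the other settings, so their counts have no share of all genes beside them.

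Of 644 values of single members under the alternatives, 13 changed sign, in 8 members. With library totals Ndufv1 was at -0.01 and Ndufb9 at -0.12. With GC content and length trends removed, Ndufb9 was at -0.14, Ndufa2 at -0.11, Ndufa7 at -0.17, Ndufa1 at -0.35, Ndufa3 at -0.21 and Ndufs5 at -0.23. When 1 library was left out, the values ranged from -0.31 to 0.55 for Ndufb9, -0.07 to 0.63 for Ndufa7, -0.03 to 0.80 for Ndufa3, -0.69 to 0.97 for Ndufs5 and -0.44 to 0.23 for Ndufb2. The cause was not tested. Leaving out 1 library leaves a group with 1, which is assumed to vary like the other group. The lowest count of a member was 392, and the part of depth or of the number of libraries in the missing calls was not tested.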
